A study of Mus musculus with 6 samples.

Results

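The transforming growth factor beta (TGF-beta) ligands Tgfb1 and Tgfb2, the receptors Tgfbr1, Tgfbr2, Tgfbr3, Acvr1b, Acvr2a and Acvr2b, and the Smad co-repressors Ski and Skil are described here in mouse embryonic stem (ES) cells with and without Dicer. Dicer is the ribonuclease that cuts precursor hairpins into mature microRNAs. The members are all probe sets, groups of short array probes that read 1 or more transcripts, whose platform annotation names exactly 1 gene and that gene is 1 of the 10. They number 25 of the 45101 probe sets deposited, and 10 of 18193 genes named by a single symbol. Expression was measured on Affymetrix arrays in 2 lines, both undifferentiated, with 3 arrays each: Dicer -/- (27H, called 27H10 in the series title), called null here, and Dicer +/- (D4), called heterozygous. Every array was placed by its title. Neither line is wild type, each genotype is 1 line, so genotype and line cannot be told apart, and no label says that its arrays are separate cultures; p-values therefore cover only the spread among these arrays, which may be technical.

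TGF-beta is secreted as a latent dimer that must be released before it can bind. The freed dimer is held by the type II receptor Tgfbr2, which phosphorylates the type I receptor Tgfbr1, and this phosphorylates Smad2 and Smad3. The co-receptor Tgfbr3 (betaglycan) presents ligand, Tgfb2 in particular. Activin and Nodal reach the same Smads through the type II receptors Acvr2a and Acvr2b and the type I receptor Acvr1b, and in ES cells Nodal is an active ligand of this branch. Ski and Skil (SnoN) bind Smad complexes on DNA and recruit co-repressors, and Skil is itself a Smad target that limits the response.

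MicroRNAs of the miR-290 cluster, abundant in mouse ES cells, and of the miR-302 cluster need Dicer to mature, and human TGFBR2 is a published target of the miR-302 family. They were not measured here. Their mature sequences, from RefSeq (GRCm38.p6), are shown because their maturation needs Dicer. The capitals mark the seed, bases 2 to 8, which is AAGUGCU in all 4.
mmu-miR-291a-3p: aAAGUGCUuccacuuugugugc
mmu-miR-294-3p: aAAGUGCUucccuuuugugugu
mmu-miR-302b-3p: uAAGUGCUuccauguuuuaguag
mmu-miR-302d-3p: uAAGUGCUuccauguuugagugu

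Values are the deposited intensities on a linear scale, in arbitrary units; an intensity of one probe set is not comparable with that of another. All 6 arrays had a mean of 500 units after trimming 2% at each end, and medians were 44.9 to 46.5 in null and 49.1 to 52.7 in heterozygous arrays. Arrays of 1 line correlated at 0.957 to 0.964 (Pearson, log2, across the tested probe sets, which are not independent replicates) and arrays of different lines at 0.918 to 0.924. Dicer1 did not pass the test described below. Its first probe set read 1132 to 1256 in null and 1053 to 1124 in heterozygous arrays (1427941_at, limma adjusted p 0.264). The other, 1460571_at, read 348 to 407 in null and 349 to 407 in heterozygous arrays (adjusted p 0.962). No label gives the deleted part of Dicer1, so these probe sets check nothing about the genotype. The 10 pluripotency markers, Pou5f1, Nanog and Sox2 among them, read at least 32 on every array of both lines. Their summed intensity was 101119 to 106714 in null and 107491 to 112104 in heterozygous arrays; by limma 0 were called, the adjusted p alone passed 1 higher and 2 lower, and an unadjusted p under 0.05 passed 1 higher and 3 lower.

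Of the 25 member probe sets, 20 reached an intensity of 32 (log2 of 5) on at least 3 of the 6 arrays and were tested, with at least 1 for every gene. None of the 20 passed through 1 line alone: each read 32 or more on at least 1 array of each line. The test was limma across all 26545 probe sets that passed, two-sided, with Benjamini-Hochberg adjustment and a threshold of 0.05; a call also needed a log2 difference of at least 1, which is 2-fold. Differences are null minus heterozygous.

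Tgfb1 transcript and 1 of the 2 Skil probe sets fell more than 2-fold in null cells, Acvr1b fell by a smaller amount, and Tgfbr2 and 1 of the 3 Tgfbr1 probe sets rose by less than 2-fold. Of the 20 probe sets, 2 were called (10%), against 12.3% of all probe sets tested; both were lower, against 6.31% of all, and 0 higher, against 5.97%. At the adjusted p alone, 5 differed (25%), against 40.1% of all: 3 were lower, against 21.2%, and 2 higher, against 18.9%. Null and heterozygous arrays were fully apart for 10 of the 20 (50%), against 51.3% of all, with null arrays below in 7, against 27.7%, and above in 3, against 23.6%. At an unadjusted limma p under 0.05, 2 were higher and 4 lower. The share of all probe sets at that threshold was not taken, but it cannot be under the 40.1% that passed the adjusted p. Counted over both directions, the shares of members were under those of all probe sets by each rule with a share over all. Counted as lower in null cells, they were above for calls and for arrays fully apart. With so few members these shares are a description. In such bulk samples, fewer cells of a type and less RNA per cell cannot be told apart.

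**Figure D1:**
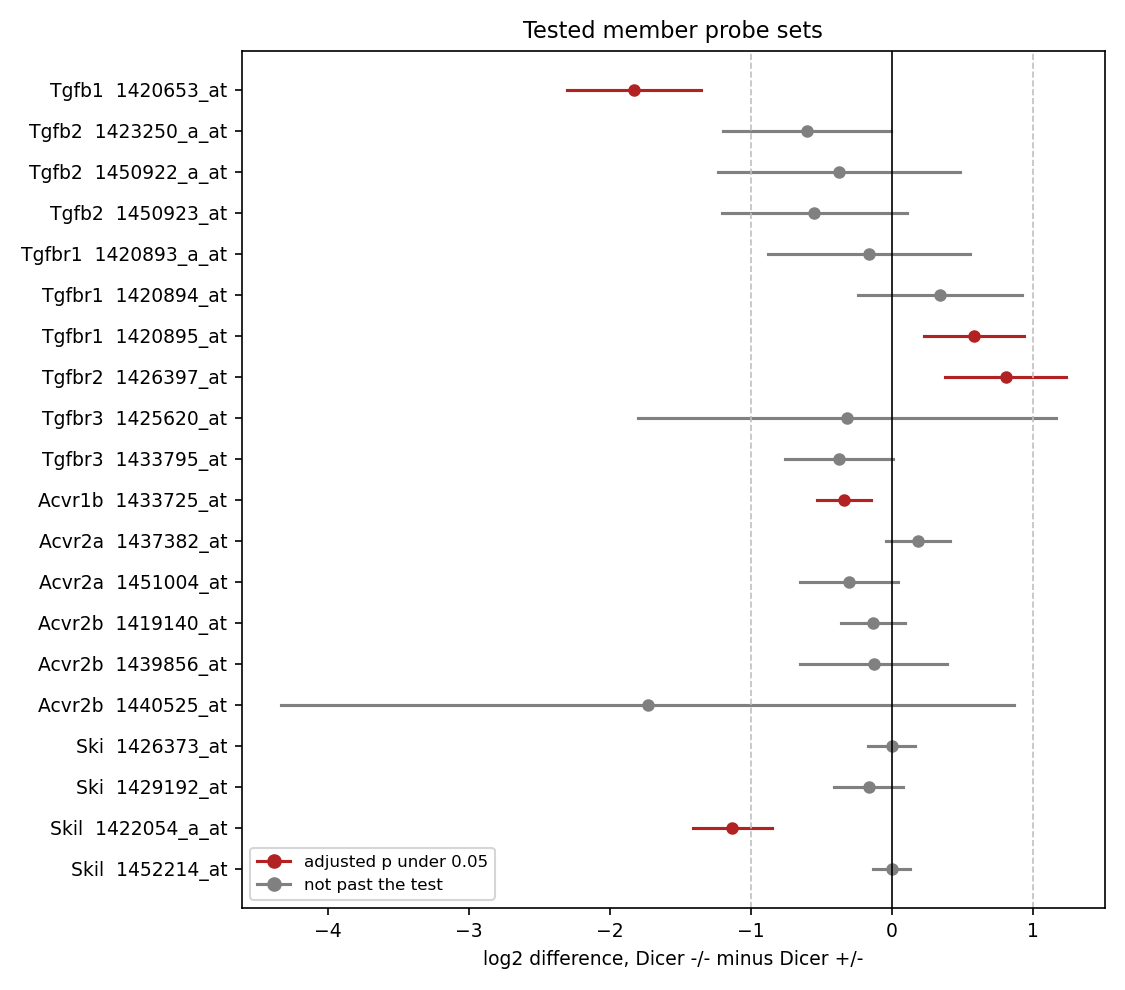
Log2 difference in intensity, null (Dicer -/-) minus heterozygous (Dicer +/-), for each of the 20 tested member probe sets, with its 95% confidence interval from limma; dashed lines mark 2-fold. The probe sets past the test are Tgfb1 1420653_at, Tgfbr1 1420895_at, Tgfbr2 1426397_at, Acvr1b 1433725_at and Skil 1422054_a_at.

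The promoters of Tgfb1, Tgfbr1 and Tgfbr2 are printed because these genes, the ligand and the receptor pair that binds it, had probe sets past the test in opposite directions; for Tgfbr1 this was 1 of 3, and the mean over the 3 did not pass (adjusted p 0.191). The table of RefSeq promoters (GRCm38.p6, 250 bases before to 50 after the start) held 8 of the 10 members; Tgfbr3 and Skil were not among them. For Tgfbr1, which has a second entry, the one at the start of the gene is given. Capitals mark CAGAC, the core bound by Smad3 and Smad4, and the GC box GGGCGG, bound by Sp1-type factors, on either strand (GTCTG and CCGCCC).
Tgfb1, chr7:25686752-25687051, plus strand: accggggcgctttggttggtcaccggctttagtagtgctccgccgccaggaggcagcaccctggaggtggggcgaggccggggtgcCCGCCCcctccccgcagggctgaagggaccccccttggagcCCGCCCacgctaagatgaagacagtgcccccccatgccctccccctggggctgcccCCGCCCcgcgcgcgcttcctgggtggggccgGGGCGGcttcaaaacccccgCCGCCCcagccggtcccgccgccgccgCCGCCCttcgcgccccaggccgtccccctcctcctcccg
Tgfbr1, chr4:47352972-47353271, plus strand: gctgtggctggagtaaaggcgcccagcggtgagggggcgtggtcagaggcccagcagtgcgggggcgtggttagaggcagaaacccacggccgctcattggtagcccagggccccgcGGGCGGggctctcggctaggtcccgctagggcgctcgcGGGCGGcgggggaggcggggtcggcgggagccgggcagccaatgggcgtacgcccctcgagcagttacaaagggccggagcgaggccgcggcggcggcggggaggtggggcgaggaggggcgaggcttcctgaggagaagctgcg
Tgfbr2, chr9:116175314-116175613, minus strand: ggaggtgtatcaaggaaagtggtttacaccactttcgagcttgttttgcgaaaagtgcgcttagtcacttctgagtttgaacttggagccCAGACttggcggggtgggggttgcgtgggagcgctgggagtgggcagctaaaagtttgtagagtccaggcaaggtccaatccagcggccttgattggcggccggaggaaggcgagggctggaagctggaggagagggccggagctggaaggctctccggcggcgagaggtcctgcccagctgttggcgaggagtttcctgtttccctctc

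The Tgfb1 promoter held 6 GC boxes and 0 CAGAC cores, the printed one of Tgfbr1 held 2 and 0, and that of Tgfbr2 held 0 and 1. The second Tgfbr1 entry, not printed, held 0 GC boxes and 1 CAGAC core. Of all 32851 promoters in the table, 35.7% held a GC box and 49.6% a CAGAC core. GC content was 77% for Tgfb1, 74.7% for Tgfbr1 and 59% for Tgfbr2. These matches describe the letters of the window and say nothing of binding.

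Tgfb1, the founding ligand of the family, had the largest difference of any member past the test. Its probe set 1420653_at (chromosome 7) read 80.7, 134 and 80.8 in null arrays, against 342, 312 and 367 in heterozygous arrays. The groups did not overlap, and the highest null array was well under the lowest heterozygous one. Means were 98.6 ± 30.9 in null and 340.1 ± 27.1 in heterozygous cells (SD, n = 3), a log2 difference of -1.83 ± 0.21 (SE) and 3.55-fold lower (limma adjusted p 7.95e-05). The other Tgfb1 probe set, 1445360_at, read 5.44 to 21.7 in null and 11.7 to 59.3 in heterozygous arrays and was too dim to test.

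Tgfb2, a second ligand, did not pass the test on any probe set. The brightest of its 4, 1423250_a_at, read 98.7, 60.9 and 81.5 in null arrays, against 99.1, 113 and 152 in heterozygous arrays. Every null array was below every heterozygous one, but by as little as 98.7 against 99.1. The log2 difference was -0.60, with a 95% interval of -1.19 to -0.00309 and a limma adjusted p of 0.103. Probe sets 1450923_at and 1450922_a_at, made from the same sequence, were at -0.55 and -0.37 (adjusted p 0.17 and 0.48). The fourth, 1438303_at, read 6.28 to 47.1 in null and 14.2 to 36.7 in heterozygous arrays and was not tested. Tgfb2 is a gene of chromosome 1, where the median log2 difference over 724 tested genes was 0.31; on the chromosomes of the other members these medians lay between -0.11 and -0.03.

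Tgfbr2, the type II receptor that binds the ligand first, rose in null cells. Its only tested probe set, 1426397_at, read 236, 234 and 301 in null arrays, against 127, 132 and 185 in heterozygous arrays. The groups did not overlap, and the third array was the highest of each line. Means were 257 ± 38.3 in null and 148 ± 32.1 in heterozygous cells (SD, n = 3), a log2 difference of 0.81 ± 0.19 (SE) and 1.75-fold, with a limma adjusted p of 0.00676. Probe sets 1425444_a_at and 1422019_at read 28.1 to 31.6 and 1.80 to 3.59 in null arrays, and 4.30 to 48.3 and 1.11 to 26.8 in heterozygous arrays; neither was tested.

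Tgfbr1, the type I receptor and kinase that acts on Smad2 and Smad3, rose on 1 of its 3 probe sets. The brightest, 1420895_at, read 1291, 1377 and 1927 in null arrays, against 902, 924 and 1215 in heterozygous arrays. The groups did not overlap, and here too the third array was the highest of each line. The log2 difference was 0.59 ± 0.16 (SE), 1.5-fold, with a limma adjusted p of 0.0135. That p was 0.0562 without heterozygous replicate 1 and 0.0559 without heterozygous replicate 2. Probe sets 1420894_at and 1420893_a_at overlapped between the lines, at 80.6 to 145 and 55.4 to 129 in null arrays and 80.2 to 97.5 and 91.0 to 122 in heterozygous arrays. Their log2 differences were 0.34 and -0.16 (adjusted p 0.337 and 0.728). As a mean over its probe sets, Tgfbr1 differed by 0.26 with an adjusted p of 0.191.

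Tgfbr3, the co-receptor, did not pass the test. Its brighter probe set, 1433795_at, read 145, 161 and 145 in null arrays, against 207, 163 and 218 in heterozygous arrays, with no overlap but only a narrow gap to heterozygous replicate 2. The log2 difference was -0.37, with a 95% interval of -0.76 to 0.00813 and a limma adjusted p of 0.111. The dimmer one, 1425620_at, read 18.5 to 37.5 in null and 15.9 to 64.7 in heterozygous arrays, at -0.31 (adjusted p 0.745).

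**Figure D2:**
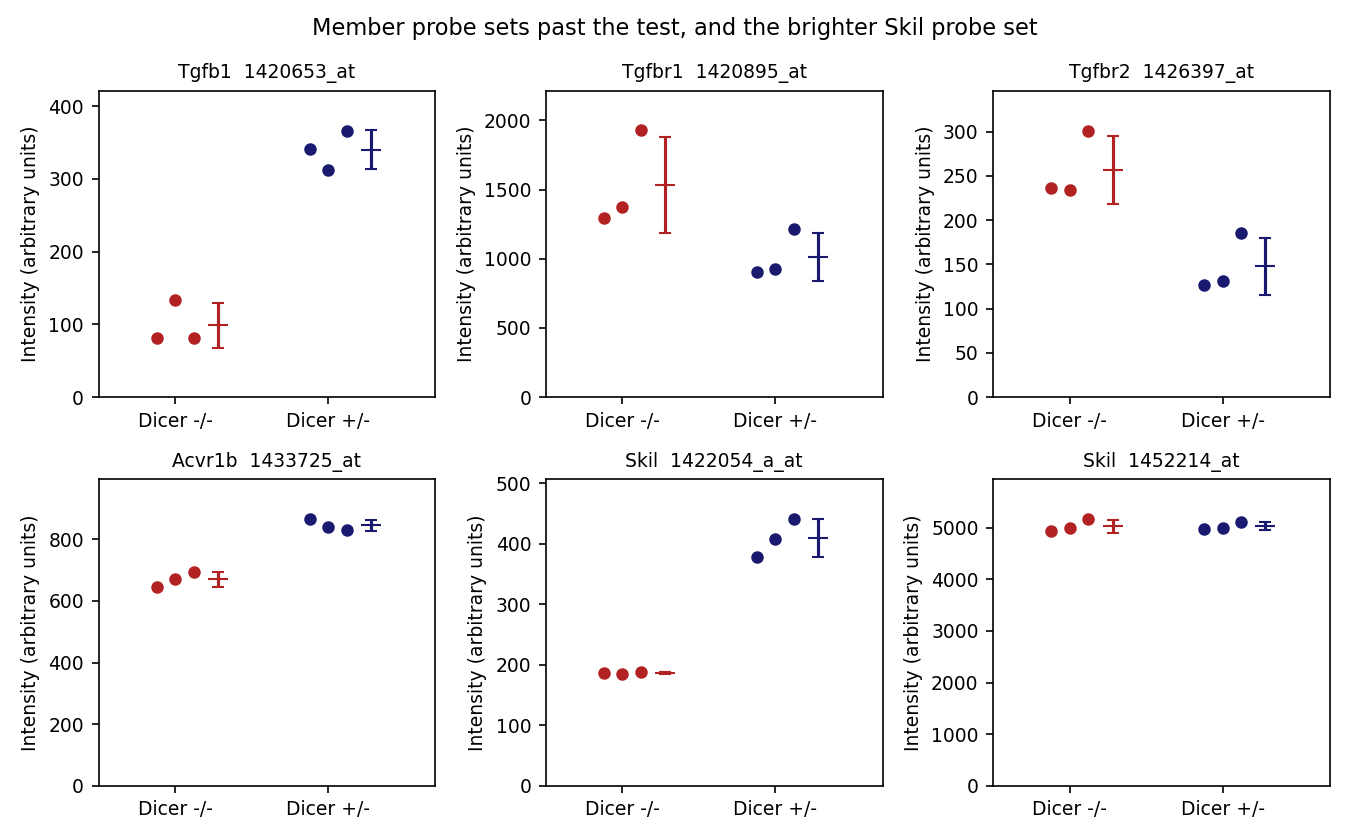
Intensity on each array, linear axes from 0, for the 5 member probe sets past the test and for Skil 1452214_at; points are arrays in order of replicate number, null (Dicer -/-) left and heterozygous (Dicer +/-) right, and bars are mean ± SD of 3 arrays. The lines do not overlap in the first 5 panels, and in the last they overlap, at 4934 to 5172 in null and 4976 to 5120 in heterozygous arrays.

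Among the activin and Nodal receptors, the type I receptor Acvr1b fell slightly. Its probe set 1433725_at read 645, 671 and 693 in null arrays, against 866, 839 and 831 in heterozygous arrays, with no overlap. Means were 669.9 ± 24.2 in null and 845 ± 18.5 in heterozygous cells (SD, n = 3), a log2 difference of -0.34 ± 0.09 (SE) and 1.26-fold lower (limma adjusted p 0.0107). With each array centred on its own median, the difference was -0.18 with an adjusted p of 0.186. The second probe set, 1422098_at, read 11.9 to 32.8 in null and 4.92 to 47.8 in heterozygous arrays and was not tested.

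The type II receptor Acvr2a was read by a pair of probe sets that pointed in opposite directions, neither past the test. Probe set 1437382_at read 463, 495 and 490.3 in null arrays, against 444, 413 and 417 in heterozygous arrays. Probe set 1451004_at read 217, 208 and 174 in null arrays, against 279, 225 and 236 in heterozygous arrays. Neither overlapped between the lines, the first being higher and the second lower in null cells, by log2 differences of 0.19 and -0.30 (limma adjusted p 0.181 and 0.15). The difference between them was 0.49, with an adjusted p of 0.126 in the test of unequal probe sets described for Skil. With arrays centred on their medians, 1437382_at was at 0.34 with an adjusted p of 0.0362.

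The other type II receptor, Acvr2b, overlapped between the lines on all 3 of its probe sets. The brightest, 1419140_at, read 808, 758 and 860.1 in null arrays, against 961, 916 and 788 in heterozygous arrays, a log2 difference of -0.13 with a 95% interval of -0.36 to 0.10 and a limma adjusted p of 0.342. Probe set 1439856_at was at -0.13 (adjusted p 0.708). The third, 1440525_at, read 6.69, 45.5 and 2.77 in null arrays, against 23.2, 37.2 and 35.9 in heterozygous arrays. Its difference of -1.73 had a 95% interval of -4.33 to 0.87 (adjusted p 0.272), and with intensities under 32 raised to 32 it was 0.04.

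Of the co-repressors, Ski did not pass the test. Its brighter probe set, 1426373_at, read 1272, 1332 and 1321 in null arrays, against 1336, 1315 and 1273 in heterozygous arrays, means of 1308 ± 32 in null and 1308 ± 32.2 in heterozygous cells (SD, n = 3). The 95% interval of the log2 difference was -0.17 to 0.17. The other, 1429192_at, read 605, 714 and 792 in null arrays, against 793, 761 and 795 in heterozygous arrays, at -0.16 with a limma adjusted p of 0.277. Null replicate 1 was the low array, and the groups overlapped.

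Skil gave unlike answers on its 2 probe sets. The dimmer, 1422054_a_at (designed from accession U36203), read 186, 185 and 188 in null arrays, against 378, 408 and 441 in heterozygous arrays. The null arrays lay close together, and the groups did not overlap. Means were 187 ± 1.64 in null and 409 ± 31.6 in heterozygous cells (SD, n = 3), a log2 difference of -1.13 ± 0.13 (SE) and 2.19-fold lower (limma adjusted p 5.7e-05). After centring each array on its median the log2 difference was -0.98, just under 2-fold. The brighter, 1452214_at (from accession AK018608), read 4934, 4995 and 5172 in null arrays, against 4976, 4993 and 5120 in heterozygous arrays. The groups overlapped, and the 95% interval of its log2 difference ran from -0.13 to 0.13.

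Whether probe sets of 1 gene differed unequally was tested with limma's diffSplice over the 6107 genes with 2 or more tested probe sets, a test chosen after the Skil values had been seen. The Skil probe sets differed by 1.13 on the log2 scale (adjusted p 0.000449). Of the 16557 probe sets in that test, 6.4% were unequal to the rest of their gene. Of the 17 member probe sets in that test, 2 were, both of Skil, and these share 1 comparison. Among the 7 member genes tested this way, Skil was thus the only one past the threshold. The adjusted p values of the others ran from 0.126 to 0.975. The suffix _a_at denotes a probe set that reads several transcripts of 1 gene. Where either Skil probe set lies along the transcripts was not analysed here, so whether a transcript fell, and which, is not known.

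**Figure D3:**
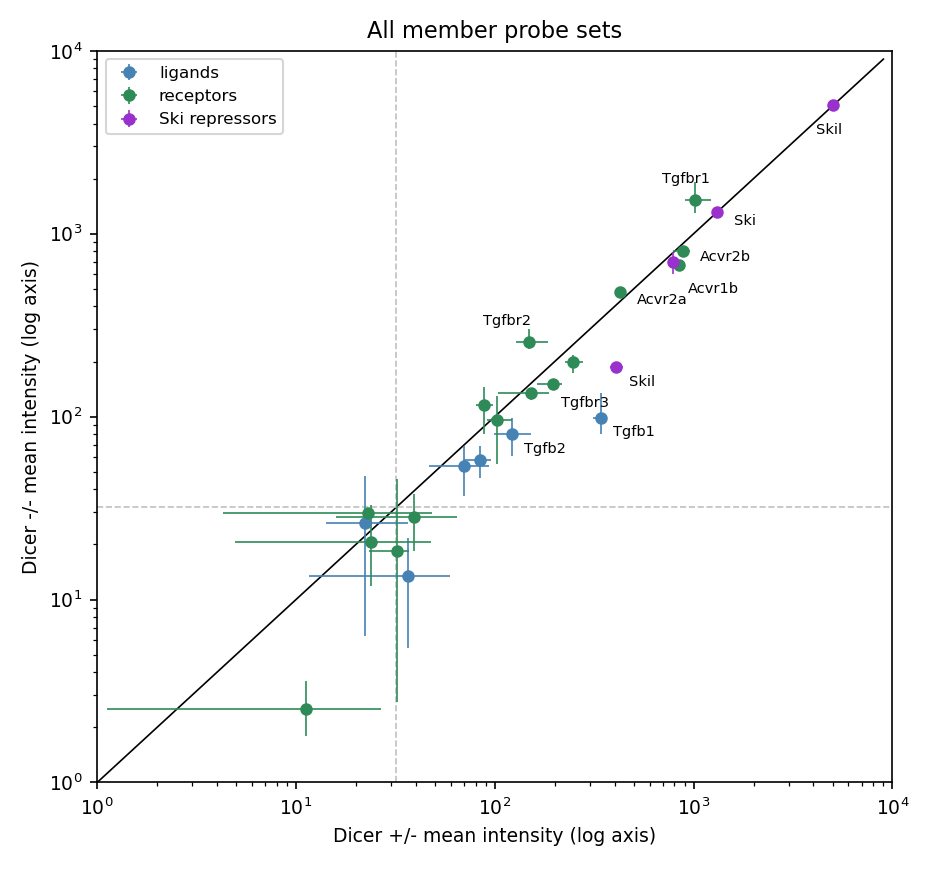
Mean intensity in null (Dicer -/-, vertical) against heterozygous (Dicer +/-, horizontal) cells for all 25 member probe sets, on log axes, with bars from the lowest to the highest of 3 arrays, the diagonal marking equality and dashed lines an intensity of 32. Named are the probe set with the highest mean of each gene and the dimmer Skil one; Tgfb1 and that Skil probe set lie under the diagonal and Tgfbr1 and Tgfbr2 above it, while bars widen under 32.

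With each member gene read by its brightest probe set, Tgfb1 and Tgfbr2 had the largest differences; on that basis the dimmer Skil probe set, with a larger difference than Tgfbr2, does not enter. For these 2 genes, the genes with the most similar pattern over the 6 arrays were found by Pearson correlation of log2 intensity, as a description only, since the arrays fall into 2 lines. For Tgfb1 these were Pmel (0.999), Slc4a5 (0.997) and Sec24d (0.997), at log2 differences of -1.02, -3.37 and -0.35. Slc4a5 read under 32 on every null array; with values under 32 raised to 32, its difference was -1.09 and its correlation with Tgfb1 0.95. For Tgfbr2 they were Znf41-ps (0.998), Luzp1 (0.998) and Bcar3 (0.998), at 0.19, 0.31 and 0.23.

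The other genes of the pathway, each read by its brightest tested probe set, did not lean one way. Of 84 tested, 7 were called higher and 8 lower. The adjusted p alone passed 25 that were higher and 21 that were lower, with a median log2 difference of 0.00. Of all 12927 genes, 7.1% were called higher and 6.06% lower, and 23.2% and 23.1% passed the adjusted p alone, with a median of -0.01. For the 10 members on the same basis the median was -0.07.

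Other ligands of these receptors differed in both directions. Of 5 tested, 1 was called higher and 0 lower, and the adjusted p alone passed 2 higher and 1 lower. Inhbb, which encodes the activin B subunit, read 1269, 1421 and 1317 in null arrays, against 514, 583 and 506 in heterozygous arrays, 2.5-fold higher with a limma adjusted p of 3.28e-06. It lies on chromosome 1. Gdf3, a Nodal-related ligand of pluripotent cells, rose by 0.50 on the log2 scale, and Nodal fell by 0.48 (adjusted p 0.000519 and 0.000172).

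Of 8 other receptors of the superfamily, 0 were called higher and 1 lower, and the adjusted p alone passed 1 in each direction. Acvr1, a type I receptor of the BMP branch, rose 1.91-fold, with 306 to 392 in null and 174.6 to 177 in heterozygous arrays (limma adjusted p 0.000504). Amhr2, the type II receptor for anti-Müllerian hormone, was 2.33-fold lower. Its probe set ends in _x_at, a suffix for probes that can match other transcripts.

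Of 8 Smad genes, which encode the signal carriers and their inhibitors, 1 was called higher and 0 lower, and the adjusted p alone passed 3 higher and 1 lower. Smad6, an inhibitory Smad of the BMP branch, was called higher at a log2 difference of 1.46. Smad1, a carrier of BMP signals, rose by 0.52. Smad7, the inhibitory Smad that targets TGF-beta receptors and is induced by TGF-beta, read 1078, 1057 and 1062 in null arrays, against 1502, 1513 and 1572 in heterozygous arrays, a log2 difference of -0.52 (limma adjusted p 0.00031). As means over their probe sets, Smad7 was at -0.09 and Smad1 at 0.10, with adjusted p values of 0.675 and 0.529.

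Among 12 genes of ligand latency and activation, 1 was called higher and 0 lower, and the adjusted p alone passed 2 in each direction. Itgav, the alpha-v integrin subunit whose dimers release latent TGF-beta, read 2957, 2742 and 3177 in null arrays, against 1124, 1029.6 and 1321 in heterozygous arrays, 2.56-fold higher (limma adjusted p 4.17e-06). Thbs1, thrombospondin, which can also activate the latent ligand, fell by 0.87 on the log2 scale. Nrros, an anchor of latent ligand, was at 0.47 (adjusted p 0.0334). Its p was over the threshold without null replicate 1 (0.064), null replicate 2 (0.128), heterozygous replicate 1 (0.0924) or heterozygous replicate 2 (0.0688).

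Of 5 extracellular and decoy inhibitors, all differed at the adjusted p alone, 4 higher and 1 lower, with 1 called in each direction. Those higher but not called, named after their values were seen, were Lefty2, Bambi and Lefty1, at log2 differences of 0.77, 0.38 and 0.24. Lefty1 and Lefty2 lie on chromosome 1, where the median log2 difference was 0.31. Dcn, which encodes decorin, a matrix proteoglycan that binds TGF-beta, read 316, 269 and 203 in null arrays, against 18.4, 58.4 and 16 in heterozygous arrays. The log2 difference was 3.32, or 2.73 with values under 32 raised to 32 (limma adjusted p 0.00021 and 5.8e-05). Fst, follistatin, which traps activin, read 106, 123 and 144 in null arrays, against 453, 503 and 449 in heterozygous arrays, 3.79-fold lower.

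Of 18 regulators of the receptors and Smads, 1 was called higher and 0 lower, and the adjusted p alone passed 7 higher and 5 lower. Tgfbrap1, a receptor-associated protein on chromosome 1, rose 2.52-fold. Nedd4l, a ubiquitin ligase for activated Smads, rose by 0.79 on the log2 scale, and the deubiquitinase Otub1 by 0.66. As means over their probe sets, Nedd4l was at 0.25 and Otub1 at -0.10 (limma adjusted p 0.412 and 0.585).

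Of 12 partners of Ski and other nuclear cofactors of Smads, 1 was called higher and 0 lower, and the adjusted p alone passed 3 higher and 2 lower. Zeb1, a Smad-binding zinc finger repressor, rose 2.05-fold. Drap1, a co-repressor that restrains Nodal signalling, rose by 0.60 on the log2 scale. Ep300, the acetyltransferase that co-activates Smads, fell by 0.52 (limma adjusted p 0.00344).

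TGF-beta response genes, genes induced or repressed by the pathway in other cells, gave more lower than higher calls. Of 20 tested, 1 was called higher and 6 lower, and the adjusted p alone passed 4 higher and 10 lower. The median was -0.45, or -0.30 with arrays centred on their medians. Centring also raised the median of all genes, as given in the closing section. Of the 22 listed, 4 also stand in other pathway lists, and Col1a1 is also among the fibroblast markers given below. Tagln, an actin-binding protein of contractile cells, read 974, 1147 and 1039.7 in null arrays, against 4113, 4380 and 4018.5 in heterozygous arrays, 3.96-fold lower (limma adjusted p 1.33e-07). The AP-1 subunit Junb was 3.53-fold lower. Col1a1, a fibrillar collagen chain, read 4.44 to 7.99 in null and 38.3 to 90.9 in heterozygous arrays, a log2 difference of -3.35, or -1.03 with values under 32 raised to 32. The other 3 called lower, named after their values were seen, were Tgfb1i1, Myc and Acta2, at -1.25, -1.24 and -1.05. The gene called higher was Cdkn1a, an inhibitor of cyclin-dependent kinases, at 1.6. The list mixes genes that the pathway induces with genes, such as Myc and Id1, that it represses in many cells.

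Some markers of other cell types also differed between the lines, in both directions, and their part in the results was not tested. Summed over 12 primitive endoderm markers, intensity was 1907 to 2162.5 in null and 4417 to 5241 in heterozygous arrays, with 6 called lower and 0 higher. Summed over 8 trophectoderm markers it was 6022 to 6550.2 in null and 11205 to 12510 in heterozygous arrays, with 2 called lower and 0 higher. The 2 called were Krt18 and Cdx2, and Krt8, at a log2 difference of -0.80, was not called. Cdx2 passed the filter through heterozygous arrays alone, at 2.83 to 29.5 in null and 49.8 to 117 in heterozygous arrays. The trophectoderm sum was carried by the keratins Krt8 and Krt18: without them the other 6 markers summed to 1376 to 2052 in null and 1528 to 2137 in heterozygous arrays, which overlap. The endoderm sum without its brightest marker, Col4a1, was 1197 to 1279 in null and 2778 to 3613 in heterozygous arrays, with no overlap. These left-out sums, and that of the next list, were chosen after the values were seen. Summed over 10 fibroblast markers, shared by feeder cells, it was 635 to 668 in null and 539.6 to 605 in heterozygous arrays, with 1 called in each direction. These were Dcn, higher, and Col1a1, lower, which also stand in the lists above. Dcn alone set the direction of that sum: without it, the other 9 markers summed to 352 to 432 in null and 524 to 587 in heterozygous arrays. Col1a2, Col3a1 and Thy1 also read lower in every null array, with log2 differences of -0.79, -0.87 and -0.52 (limma adjusted p 0.102, 0.178 and 0.0352), and the median of the 8 tested was -0.65. The matrix genes Lum and Postn, on the same list, averaged 30.9 and 3.27 in null and 18.5 and 3.98 in heterozygous cells and were not tested. Summed over 6 neural markers, intensity was 1689 to 1975 in null and 1225 to 1425 in heterozygous arrays, with 2 called higher, Pax6 and Map2. Pax6 made up much of that gap, at 549 to 614 in null and 124 to 166 in heterozygous arrays. No sum without Pax6 was taken, so the total does not show that the other neural markers were higher together in null cells. Map2 and Sox1 were at log2 differences of 1.56 and 0.90 (limma adjusted p 0.00011 and 0.0201). Nes and Tubb3 went the other way, at -0.31 and -0.18 (adjusted p 0.238 and 0.202), and Neurog2 was not tested. Summed over 7 mesoderm markers it was 382 to 504 in null and 444 to 544 in heterozygous arrays, with 1 called in each direction.

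**Figure D4:**
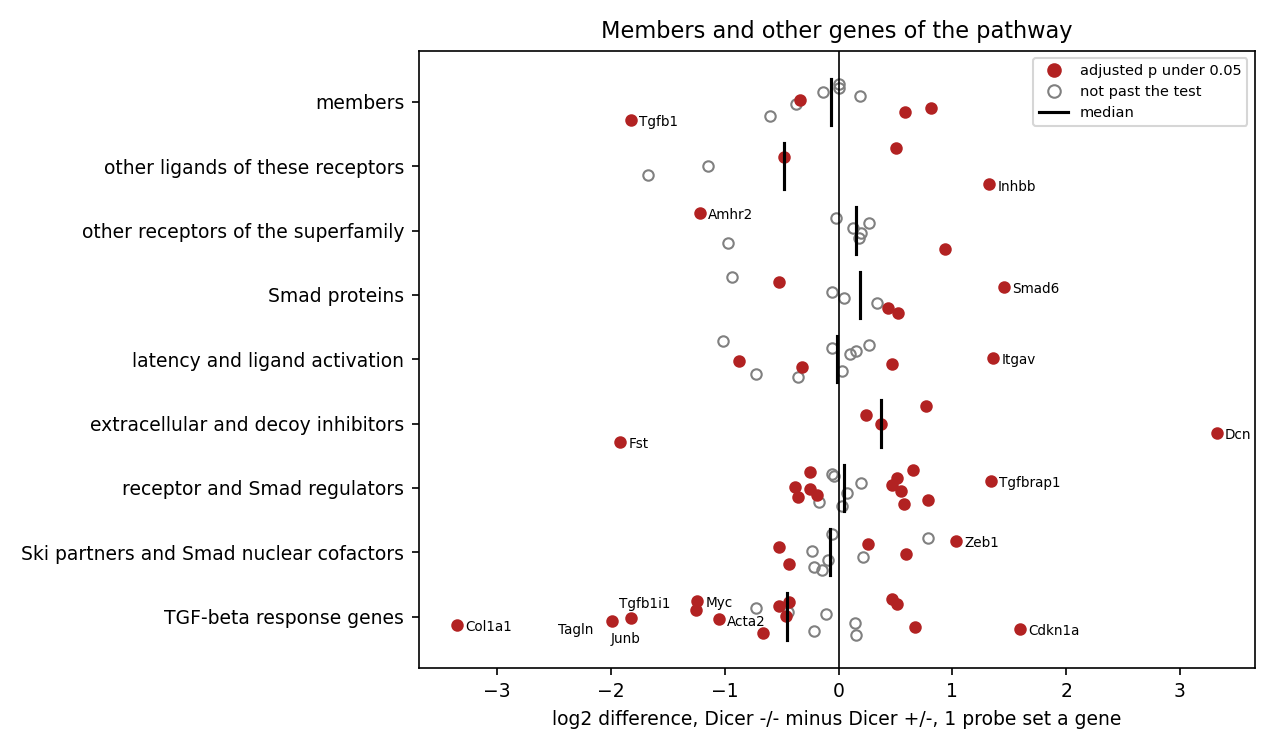
Log2 difference, null (Dicer -/-) minus heterozygous (Dicer +/-), for the members and each list of other pathway genes, 1 tested probe set a gene, spread vertically for clarity; filled points passed an adjusted p of 0.05, bars are medians and called genes are named. The TGF-beta response genes have 6 of 20 called lower and a median of -0.45, against -0.01 for all genes tested.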

How the data were processed

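The series holds 6 expression arrays of undifferentiated mouse ES cells, 3 of a Dicer -/- and 3 of a Dicer +/- line. Per probe set and array, the authors deposited 1 linear intensity, as judged from its range. The submitters' processing notes name GCRMA, without a version; since GCRMA gives log2 values, the step that used it is unknown. All arrays share a trimmed mean, which does not equalize their medians. No detection calls were used, the number of arrays limits the precision, and no batch is known beyond a shared day of analysis.

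The 64 control probe sets were left out. The annotation gave 1 symbol to 34945 probe sets, several to 932 and none to 9160; 0 symbols changed when updated through the GRCm38.p6 gene table. Values under 1, 3413 of those deposited, were raised to 1 before log2. Probe sets at a log2 of 5 or more on at least 3 arrays were fitted with limma 3.58.1 in R 4.3.3 (lmFit, eBayes with intensity trend), group being the only term. On simulated data of the same 26545 probe sets, 34% of those changed by a log2 of 0.5 passed the adjusted p, 74% at 1.5, 82% at 2.5 and 90% at 4, as did 0.038% of unchanged ones. Only 50 probe sets were changed at each size, 26345 were left unchanged, and the noise was normal and followed the intensity trend. In the data 40.1% passed the adjusted p, so these percentages check the code and do not give power or error rates for these data. Figures were drawn with Python 3.11.15 and matplotlib 3.10.9.

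The members and lists were chosen with earlier results of these data known. Of 100 symbols listed, 93 matched and 84 had a tested probe set; the rest were not analysed here. Genes named beside members and Dicer1 were, per list, up to 4 called genes by size of difference, or, where fewer than 2 were called, up to 2 more at the adjusted p alone. The 3 most correlated genes are named for the 2 members with the largest differences, each gene read by its brightest tested probe set. Alternatives were other filters, log scales, variance priors, normalizations, weights, ways to combine probe sets, the replicate number as a block, and leaving out each array; the test of unequal probe sets, marker sums with genes left out and low values raised for correlated genes were added after seeing the data.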

Additional observations from a re-analysis of the deposited data

How the results depend on the processing

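Tgfb1 1420653_at (-2.07 to -1.67), Tgfbr2 1426397_at (0.69 to 0.98) and Skil 1422054_a_at (-1.19 to -0.98) kept direction and stayed past the adjusted p of 0.05 under every alternative that gave them a value (18, 18 and 16). Tgfbr1 1420895_at did so in 14 of 18, its p being 0.0823 with eBayes without an intensity trend. Acvr1b 1433725_at did so in 17 of 18. The member probe sets called lower numbered 1 in place of 2 with arrays centred on their medians, where Skil was at -0.98, with 1 probe set per gene, where that Skil probe set is not used, and with the mean over a gene's probe sets. Those higher at the adjusted p alone numbered 1 in place of 2 without an intensity trend and with the mean over probe sets, and 1 to 2 when an array was left out (1 without heterozygous replicate 1 or 2). Centring moved the median of all genes from -0.01 to 0.14 and the calls over all probe sets from 1586 higher and 1676 lower to 2186 and 1180; the cause was not tested. Calls over all fell to 980 lower with a log2 filter of 7, to 934 higher and 802 lower with 1 probe set per gene, and to 862 and 855 with means over probe sets, settings that test fewer features. Over all alternatives, member values kept direction and side of the threshold 303 times, lost the test 5 times, gained it 1 time and turned sign 18 times. Other named genes did so 429, 9, 1 and 5 times. A turned sign was counted as such whatever its p. Signs turned only for values near 0 or of wide spread, and for gene means. Acvr2b was at 0.0423 (1440525_at, values under 32 raised to 32), 0.0218 (1419140_at, centred) and 0.0283 (1439856_at, centred; -0.38 to 0.053 leaving out an array). Ski 1426373_at was at -0.0166 with quantile normalization, -0.00151 with array weights and -0.0812 as a mean over probe sets (-0.0195 to 0.0202 leaving out an array). Skil 1452214_at was at -0.00318 with array weights and, as the mean with the other Skil probe set, at -0.56 with an adjusted p of 0.00015 (-0.0187 to 0.0152 leaving out an array). Tgfbr1 1420893_a_at was at 0.04 with array weights (-0.42 to 0.19 leaving out an array), Acvr2a at -0.0598 and Otub1 at -0.10 as means over probe sets, and Dicer1 1460571_at at 0.15 centred (-0.0842 to 0.0623 leaving out an array). The deviations of same-numbered arrays from their line means correlated at 0.03, 0.03 and 0.08. These values are low, but each array correlated best with its own number, a hint from the data and not from the design. Whether same-numbered arrays share more than a number is not known. With the replicate number as a block, 2 member probe sets were called lower and 0 higher, 1597 of all were called higher and 1715 lower, and no member changed its side of the threshold; the adjusted p of Tgfbr1 1420895_at was 4.29e-05. With no detection calls, differences of probe sets near 32 are the least certain.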
